A study of Mus musculus with 19 samples.

Results

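The Ets family transcription factors described here are 10 genes, Ets1, Ets2, Elf1, Elf2, Elf4, Etv6, Fli1, Erg, Gabpa and Elk3, among 22180 genes read by a probe set with 1 gene symbol on 19 microarrays of sorted mouse thymocytes. All 10 were found, each with 1 such probe set. The family was selected on the higher Ets2 values of Rptor-deficient ISP and DN3a cells, so those values of Ets2 are given as a description without a test. Thymocytes came from C57BL/6 mice in which Rptor, which encodes the Raptor subunit of mTORC1, was loxP-flanked (Raptorfl/fl) and removed by a CD2-driven Cre, labelled Rptor-/-, and from WT mice of the same strain. CD2-cre acts in lymphocytes in general, and the labels give no age, no pooling of animals and no statement on whether WT mice carried Cre. Each population was a sorted gate. Immature single-positive (ISP) cells, CD8+ thymocytes on the αβ branch, gave 3 Rptor-/- and 4 WT arrays. γδ T cells gave 3 Rptor-/- and 3 WT arrays. DN3a cells, the CD25-high double-negative stage at which αβ and γδ cells part, gave 3 Rptor-/- and 3 WT arrays.

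Ets proteins share a DNA-binding domain that recognises a GGAA core, and several of them are phosphorylated by MAP kinases. Ets1 and Ets2 are activators of the same subgroup, Fli1 and Erg form another, and Elf1, Elf2 and Elf4 belong to an Elf subgroup of their own. Etv6 and Elk3 act largely as repressors, and Gabpa binds DNA together with a Gabpb subunit. In thymocytes the family is known for its part in β-selection and in the quiescence of T cells, and Erg and Fli1 are best known from stem cells and megakaryocytes.

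The deposited values were on the log2 scale. The 7 ISP arrays had medians of 3.80 to 3.88, while those of the 12 DN3a and γδ arrays were 6.03 to 6.13, and levels were compared only within either set. Below, the array median is the one over genes, 3.997 to 4.041 on ISP arrays and 6.26 to 6.36 on the others. Rptor signal in Rptor-/- arrays was 84.4% of WT in ISP cells, 81.2% in γδ T cells and 66.9% in DN3a cells, by 1 probe set whose place relative to the deleted exons is unknown here. Of 5 measured γδ T-cell markers, limma called Sox13, Zbtb16 and Id3 higher in WT γδ than in WT DN3a cells (2.78, 2.81 and 2.77 on the log2 scale) and Cd3e lower (-0.24, which no longer passed with WT γδ array 1 or 2 or WT DN3a array 1 left out, at -0.21 to -0.22), and Il7r did not pass (-0.04). All 7 DN3a markers, Cd3e among them, were lower. Cd8a lay above the array median on every ISP array and below it on DN3a and γδ arrays. Of 7 myeloid markers, those above the array median on all arrays of a group were Lyz2 in DN3a cells of both genotypes and Spi1 in Rptor-/- ISP cells. Of 5 dendritic markers it was Siglech in ISP cells, and of 4 megakaryocyte markers Itga2b and Gp9 in DN3a and γδ T cells, of both genotypes. The T-cell receptor constant genes Trdc and Trgc1 were not analysed here. The number of arrays limits the precision, and the labels do not say whether replicate arrays stem from different mice. The p-values therefore cover the spread among these arrays alone, and that spread may be technical.

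Promoter windows show the letters upstream of the genes the results turn on. RefSeq windows of mouse build GRCm38.p6 were matched for 8 of the 10 genes, in 13 windows, and the 250 bases before the start are used. The window of Ets2 is shown because Ets2 had the largest genotype differences of the family, that of Erg (the most upstream of 3) because it had the largest difference between populations, and that of Elf4 (the more upstream of 2) because it moved the other way between populations. Capitals mark GGAA or its complement TTCC, the core that Ets proteins bind.
Ets2, chr16:95702157-95702406, plus strand: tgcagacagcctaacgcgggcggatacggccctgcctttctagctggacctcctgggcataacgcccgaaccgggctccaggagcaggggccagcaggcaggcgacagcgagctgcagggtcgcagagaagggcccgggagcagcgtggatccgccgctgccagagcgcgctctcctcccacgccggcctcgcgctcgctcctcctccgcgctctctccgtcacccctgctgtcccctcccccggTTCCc
Erg, chr16:95586594-95586843, minus strand: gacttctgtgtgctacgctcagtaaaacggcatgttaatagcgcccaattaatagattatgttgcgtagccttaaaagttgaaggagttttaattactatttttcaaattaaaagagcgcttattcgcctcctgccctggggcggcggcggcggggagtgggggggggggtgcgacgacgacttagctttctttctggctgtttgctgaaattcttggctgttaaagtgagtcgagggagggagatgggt
Elf4, chrX:48463133-48463382, minus strand: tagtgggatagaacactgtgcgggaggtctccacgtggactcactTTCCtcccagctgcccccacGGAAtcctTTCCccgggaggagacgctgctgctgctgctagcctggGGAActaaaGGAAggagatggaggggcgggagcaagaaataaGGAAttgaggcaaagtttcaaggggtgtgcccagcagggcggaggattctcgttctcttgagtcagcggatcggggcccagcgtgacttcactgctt
On either strand the core occurred 1 time in the Ets2 window, 0 times in the Erg window shown and 6 times in the Elf4 window shown. The counts depend on the window, as the other 2 windows of Erg held 4 and 2 and the other of Elf4 held 2. Elf1 and Elk3, which also rose in WT γδ over WT DN3a cells, had 2 and 0 in the windows of Elf1 and 2 in that of Elk3. It was present in 11 of the 13 windows of these genes, against 93.4% of all 32851 windows in the table. The longer motif CCGGAAGT, which contains the core, was in 0 of the 13 windows and in 2.88% of all. The AP-1 motif TGACTCA was in 2 of the 13 windows, 1 of Elf4 and 1 of Elf1, and in 4.46% of all. These are matches of letters and say nothing about binding.

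Of the family, Ets2 stood highest above WT in Rptor-/- ISP cells. Ets2 was at 10.60, 10.80 and 10.62 on the 3 Rptor-/- ISP arrays, against 9.08, 8.96, 9.07 and 9.31 on the 4 WT ISP arrays. The groups did not overlap, and the lowest Rptor-/- array lay more than 1 log2 unit above the highest WT array. The log2 difference was 1.57 (SE 0.09), a fold of 2.97. With all arrays quantile-normalized together it was 1.32.

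Among the other 9 genes in ISP cells, limma called 3, of which Ets1 and Elf1 rose and Etv6 fell, where 12.4% of all genes were called, 5.87% higher and 6.57% lower. Because the ISP contrast took part in picking the family, nothing is read from that count. Ets1, which is needed for normal passage through β-selection, was at 9.92, 10.02 and 10.04 on Rptor-/- ISP arrays and at 9.71, 9.70, 9.53 and 9.78 on WT ISP arrays. The highest WT array stayed below the lowest Rptor-/- array. The log2 difference of Ets1 was 0.31 (SE 0.07, limma adjusted p = 0.0053), but a fit of the ISP arrays alone did not call it (adjusted p = 0.0509). Elf1, an activator of T-cell genes, was at 9.88, 9.99 and 9.91 on Rptor-/- arrays and at 9.61, 9.48, 9.54 and 9.74 on WT arrays. Elf1 did not overlap between the groups and rose by 0.33 (SE 0.07, limma adjusted p = 0.0018).

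The repressor gene Etv6 went the other way. Etv6 was at 6.93, 7.37 and 7.30 on Rptor-/- ISP arrays, against 7.55, 7.71, 7.74 and 7.43 on WT ISP arrays. The difference was -0.41 (SE 0.10, limma adjusted p = 0.0075). Of the 9 genes other than Ets2, Etv6, Ets1 and Elf1 were the 3 whose groups did not overlap, where 16.7% of all genes did not overlap, and nothing is read from that count either. Rptor-/- array 1 was the lowest for Etv6, and without it the difference was -0.27 and the call was lost (adjusted p = 0.0653), as it was in a fit of the ISP arrays alone (adjusted p = 0.132). Fli1 was at 8.68, 8.79 and 8.81 on Rptor-/- arrays and at 8.56, 8.60, 8.48 and 8.73 on WT arrays, which overlap. Its difference of 0.17 did not pass (limma adjusted p = 0.126), but passed without WT array 4 (0.22, adjusted p = 0.0452). Elk3, a partner of the serum response factor, was between 7.23 and 7.49 on Rptor-/- arrays and between 7.04 and 7.45 on WT arrays, with a difference of 0.15 that did not pass.

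Elf2, Elf4, Gabpa and Erg did not pass in ISP cells either, with differences of -0.02, -0.05, 0.03 and -0.12. Their 95% intervals ran from -0.15 to 0.12 for Elf2, from -0.21 to 0.11 for Elf4, from -0.10 to 0.17 for Gabpa and from -0.37 to 0.13 for Erg. Values repeated exactly among the ISP arrays for 3 of the 10 genes. Elf2 had the same value, 7.79, on 6 of the 7 ISP arrays, Erg the value 3.20 on 4 and Gabpa a shared value on 2. Across all genes 39.1% had 1 value on 3 or more ISP arrays, against 0.005% on 3 or more of the other 12, so the spread of such genes in ISP cells is understated. Erg lay below the array median in ISP cells. In bulk samples fewer cells of a type and less RNA per cell cannot be told apart, here and in the comparisons that follow.

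**Figure D1:**
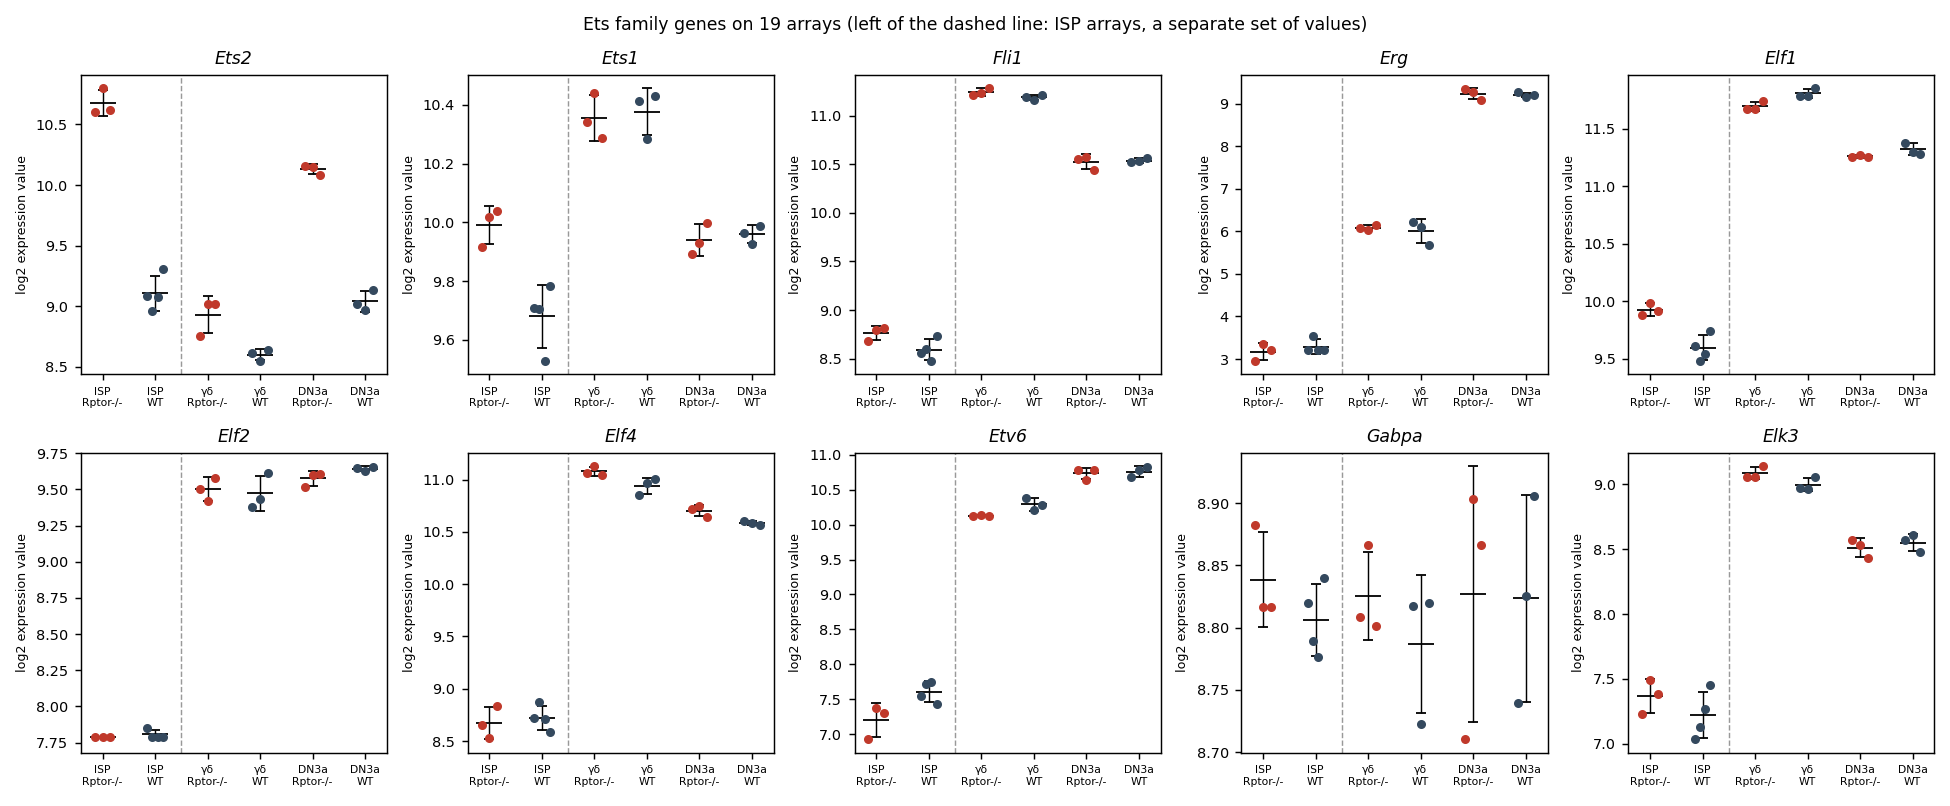
Log2 expression value (y axis, its range differing between panels) of the 10 Ets family genes on each array, by population and genotype (x axis). Points are arrays, red for Rptor-/- and dark blue for WT, and bars are the mean ± SD. ISP values stand left of the dashed line because they belong to a separate set of values. Ets2 in Rptor-/- ISP cells sits between 10.60 and 10.80, above all 4 WT ISP arrays, and Erg is near 6 in γδ and near 9 in DN3a cells.

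Other changes in the same ISP arrays stood beside these. Of 7 measured DN3a markers, 6 rose in Rptor-/- ISP cells and 1 did not pass, and their mean level was 8.57 to 8.68 on Rptor-/- arrays against 7.78 to 7.93 on WT arrays. Dtx1, a regulator and target of Notch signalling, rose by 1.81 and Notch3 by 1.36. Of 12 genes of sorting stress and immediate early response, 10 fell and 2 did not pass, with a mean level of 5.23 to 5.72 on Rptor-/- arrays against 6.97 to 7.72 on WT arrays. Of 5 γδ T-cell markers, Id3 fell by 2.29 on the log2 scale, Il7r also fell, Cd3e rose and 2 did not pass. The part of any of these in the values of Ets2, Ets1, Elf1 and Etv6 was not tested. Endothelial markers, which matter because several Ets factors are abundant in vessels, had 1 of 7 higher (Pecam1) and 1 lower (Egfl7, a call lost when only ISP arrays were used and without Rptor-/- array 2 or 3 or WT array 1 or 3, at -0.33 to -0.40), and Kdr, Tek, Emcn and Cldn5 were not above the array median in any group.

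In the ISP comparison 12.4% of all genes were called. Of 15 other Ets family genes measured, 1 fell and 1 rose in Rptor-/- ISP cells and 13 did not pass. Their median difference was -0.002, against -0.004 over all genes. Erf, an Ets repressor that MAP kinase keeps out of the nucleus, was at 6.61, 6.72 and 6.76 on Rptor-/- arrays and at 7.66, 7.22, 7.54 and 7.44 on WT arrays. Erf fell by 0.77 on the log2 scale (SE 0.10, limma adjusted p = 1.6e-05). Etv3, a repressor of the same kind, rose by 0.37 (limma adjusted p = 0.0225). Leaving out Rptor-/- array 1 (0.38), Rptor-/- array 3 (0.30) or WT array 3 (0.28), or fitting the ISP arrays alone, removed the Etv3 call.

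Among 23 measured partners and MAP kinase regulators of Ets factors, 5 rose and 4 fell in Rptor-/- ISP cells, and 14 did not pass. Over all genes 12.4% were called. The lists were chosen with earlier results of these data known, so nothing is read from their counts. Jun and Fos, which encode AP-1 proteins that bind next to Ets factors, fell by 3.25 and 2.30 on the log2 scale, and Junb fell by 0.88. These 3 also belong to the stress list. Rasgrp1, which activates Ras below the T-cell receptor, rose by 0.67 (SE 0.08). Gabpb2, a subunit that pairs with Gabpa, was higher at 0.53 (SE 0.08) while Gabpa itself did not pass. Of 25 T-lineage genes with published Ets input, 6 rose, 3 fell and 16 did not pass. Bcl2, the survival gene, rose by 1.15, and Bcl11b, a factor of T-cell commitment, by 0.57. Il7r, the IL-7 receptor α chain gene to whose enhancer and promoter Ets proteins bind, fell by 1.68, and Klf4, a target of Elf4 in T cells, by 0.70. Il7r was below the array median on all 3 Rptor-/- ISP arrays, so its difference has 1 side in a range of weak signal. By limma, Jun had the smallest adjusted p of these genes (4.5e-07) and Klf4 the largest (2.8e-04).

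In DN3a cells, where the higher Ets2 values also took part in picking the family, none of the other 9 genes passed. Ets2 was at 10.16, 10.15 and 10.08 on Rptor-/- DN3a arrays, against 9.02, 8.97 and 9.14 on WT DN3a arrays. Every Rptor-/- array was above every WT array, and the SD was 0.04 in Rptor-/- and 0.09 in WT DN3a cells (n = 3 each). The log2 difference was 1.09 (SE 0.09), a fold of 2.13. Limma called 0 of the other 9 genes, and 0 of them had an unadjusted p under 0.05, where 0.983% of all genes were called (0.712% higher and 0.271% lower, or 218 genes, 72.5% of them higher, or 54.9% with quantile normalization across all arrays).

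The other 9 genes in DN3a cells had log2 differences between -0.07 and 0.12, and all of their 95% intervals lay between -0.24 and 0.29. Elf4, which holds T cells in quiescence, was at 10.71, 10.75 and 10.65 in Rptor-/- and at 10.60, 10.59 and 10.56 in WT DN3a cells, and its difference of 0.12 did not pass although the groups did not overlap. Groups also did not overlap for Elf1 (-0.06) and Elf2 (-0.07), where 17.1% of all genes did not overlap. Ets1, closest in sequence to Ets2, was at 9.892, 9.930 and 9.998 in Rptor-/- and at 9.96, 9.93 and 9.99 in WT DN3a cells, which overlap. Erg, the neighbour of Ets2 on chromosome 16 with no protein-coding gene between them, was at 9.34, 9.28 and 9.09 in Rptor-/- and at 9.26, 9.16 and 9.19 in WT DN3a cells. Its difference was 0.03 with a 95% interval from -0.24 to 0.29.

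Beside this, 2 of 7 DN3a markers rose in Rptor-/- DN3a cells, Dtx1 by 1.38 and the pre-TCR α gene Ptcra by 0.68, and their mean level was 11.30 to 11.39 on Rptor-/- arrays against 10.87 to 10.90 on WT arrays. Early progenitor and mast-cell genes had 2 of 7 lower, Cpa3 at -1.88 and Kit at -0.73, with a mean level of 6.64 to 6.68 on Rptor-/- arrays against 7.02 to 7.12 on WT arrays. The myeloid marker Lyz2, which encodes a lysozyme, was at 7.59, 7.98 and 8.40 on Rptor-/- and at 6.77, 7.27 and 6.81 on WT DN3a arrays. Lyz2 rose by 1.04 (limma adjusted p = 0.0035), the other 6 myeloid markers did not pass, and the list's mean level was 5.83 to 5.93 on Rptor-/- arrays against 5.74 to 5.87 on WT arrays. Of 5 stromal markers the epithelial adhesion gene Epcam rose by 0.67 (limma adjusted p = 0.0039), a call lost when DN3a arrays alone were used (adjusted p = 0.0640), and the mean level was 7.06 to 7.18 on Rptor-/- arrays against 6.94 to 7.05 on WT arrays. Of 5 γδ T-cell markers Sox13 rose by 0.51, a call lost without any 1 of the 6 DN3a arrays (0.48 to 0.55). None of the 12 stress genes was called by limma, and 3 had an unadjusted p under 0.05. Their mean level was 8.89 to 9.08 on Rptor-/- arrays against 8.20 to 8.645 on WT arrays, higher without Rptor, opposite to ISP cells. The heat shock genes Hspa1a (10.81 against 8.73) and Hspa1b (9.19 against 7.56) differed most, with SDs of 0.51 to 1.03. Junb alone went the other way, at 10.04 against 10.12. The part of any of these changes in the Ets2 values was not tested. Limma called 0 of the 15 other Ets family genes (3 at an unadjusted p under 0.05) and 0 of the 23 partners and regulators (3 at an unadjusted p under 0.05), and of the 25 T-lineage genes it called Ptcra alone. Etv5, a MAP kinase-responsive Ets factor, was at 6.87, 7.12 and 6.90 in Rptor-/- and at 6.27, 6.05 and 6.47 in WT DN3a cells. Its difference of 0.70 did not pass (limma adjusted p = 0.116) but passed when only the 12 DN3a and γδ arrays were fitted (adjusted p = 0.0171).

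In γδ T cells no member passed, and Ets2 came closest. Ets2 was at 8.76, 9.02 and 9.02 on Rptor-/- γδ arrays, against 8.61, 8.55 and 8.64 on WT γδ arrays. All 3 Rptor-/- arrays lay above all 3 WT arrays, with array 1 the lowest of the 3. The log2 difference was 0.33 (SE 0.09, 95% interval 0.14 to 0.53, limma adjusted p = 0.0598). It passed with each array centred on its median (adjusted p = 0.0460), with dim genes left out (0.0312), with trend and robust variance (0.0321) and without Rptor-/- array 1 (0.42, adjusted p = 0.0223), and over all alternatives the adjusted p ranged from 0.0223 to 0.220. An exact two-sided permutation test of this value gave p = 0.1, the smallest that 3 arrays against 3 allow. Limma called 0 of the 10 genes here and 1 of them, Ets2, had an unadjusted p under 0.05, where 3.05% of all genes were called (1.77% higher and 1.28% lower, or 677 genes, 58.1% of them higher, or 74.9% with each array centred on its median).

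The other 9 genes in γδ T cells had log2 differences between -0.17 and 0.14, with 95% intervals within -0.38 to 0.35. Etv6 was at 10.12, 10.13 and 10.13 in Rptor-/- and at 10.39, 10.20 and 10.29 in WT γδ cells. All Rptor-/- arrays were lower, but the difference of -0.17 did not pass (limma adjusted p = 0.457). Elf4 was at 11.07, 11.12 and 11.04 in Rptor-/- and at 10.85, 10.97 and 11.00 in WT γδ cells, a difference of 0.14 that did not pass either. Over the 10 genes the groups did not overlap for 6, where 21% of all genes did not overlap, and their median difference was 0.05 against 0.004 over all genes.

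The Ets2 difference in γδ T cells was smaller than in DN3a cells by 0.76 on the log2 scale (SE 0.13). Since the DN3a value took part in picking the family, no test is given for it. For the other 9 genes limma called 0 differences between the γδ and DN3a genotype effects, and 0 had an unadjusted p under 0.05, where 0.6% of all genes were called. Across the 4 groups of this set of arrays Ets2 stood in the order Rptor-/- DN3a (10.13 ± 0.04), WT DN3a (9.04 ± 0.09), Rptor-/- γδ (8.93 ± 0.15) and WT γδ (8.60 ± 0.04; SD, n = 3 each). WT DN3a and Rptor-/- γδ arrays overlapped, and the other neighbours in that order did not.

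**Figure D2:**
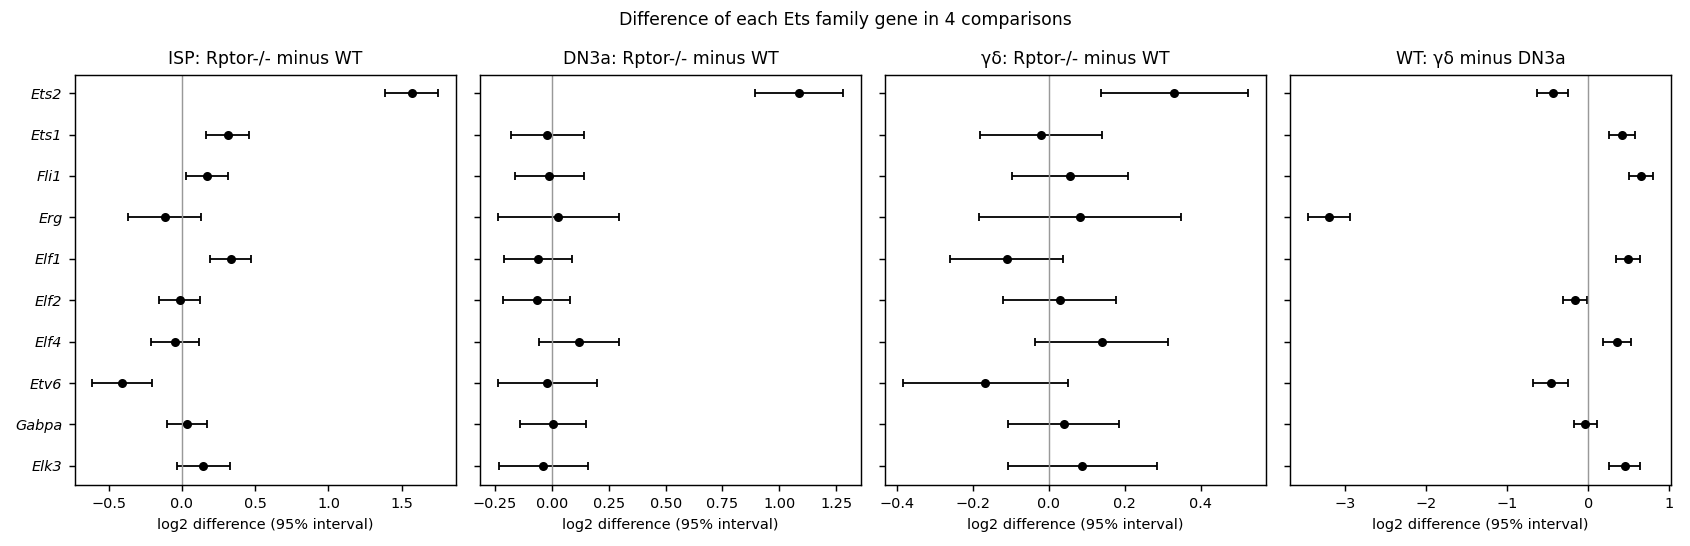
Log2 difference (x axis) of each of the 10 genes (y axis) in the 3 comparisons of Rptor-/- with WT and in WT γδ against WT DN3a cells. Points are limma estimates and bars are 95% intervals, and the vertical line marks no difference. For Ets2 the intervals in ISP, in DN3a and between WT populations are no test, since values in them took part in picking the family. Ets2 stands at 1.57 in ISP, 1.09 in DN3a and 0.33 in γδ T cells, and Erg at -3.20 between WT populations.

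In γδ T cells 1 of 7 DN3a markers, Dtx1, rose by 0.57 by limma, a call lost when all probe sets of Dtx1 were averaged (0.41, adjusted p = 0.0906), and the markers' mean level was 8.43 to 8.76 on Rptor-/- arrays against 8.26 to 8.41 on WT arrays. Of 5 ISP markers 3 fell, and their mean level was 8.27 to 8.43 on Rptor-/- arrays against 8.76 to 8.86 on WT arrays. Cd8b1, the CD8 β chain gene, was at 6.39, 7.38 and 7.50 on Rptor-/- and at 8.81, 8.85 and 8.75 on WT γδ arrays, a fall of 1.72 on the log2 scale. The Cd8a difference of -0.53 no longer passed with Rptor-/- array 2 or 3 or WT array 2 or 3 left out (-0.38 to -0.58) or under either scaling, and that of Cd24a, -0.33, with any 1 γδ array left out other than Rptor-/- array 2 (-0.29 to -0.36). Zbtb16, the PLZF gene of innate-like γδ T cells, was the 1 of 5 γδ markers called and rose by 0.74. Of 7 early progenitor and mast-cell genes Kit rose by 0.99 and Cpa3 was at -0.40, which no longer passed with Rptor-/- array 1 or 2 or WT array 1 or 2 left out (-0.36 to -0.42). Of the 12 stress genes limma called 0, and 3 had an unadjusted p under 0.05. Their mean level was 8.89 to 9.18 on Rptor-/- γδ arrays against 8.42 to 8.86 on WT γδ arrays. The part of these in the values of the Ets genes was not tested. Of the 15 other Ets family genes 1 rose and 14 did not pass. It was Erf, at 8.50, 8.40 and 8.69 in Rptor-/- and at 8.02, 8.21 and 8.09 in WT γδ cells. Erf rose by 0.42 (SE 0.10, limma adjusted p = 0.0265), opposite in direction to ISP cells, and leaving out Rptor-/- array 3 (0.34), WT array 1 (0.38) or WT array 3 (0.42), or fitting the γδ arrays alone, removed the call. Of the 23 partners and regulators 1 rose and 22 did not pass. Of the 25 T-lineage genes 4 rose, 2 fell and 19 did not pass, where 3.05% of all genes were called. The growth gene Myc rose by 0.42 (limma adjusted p = 0.0345), a call lost without Rptor-/- array 2 (0.39) or 3 (0.44), without WT array 1 (0.35) or 3 (0.42), and when γδ arrays alone were used.

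The comparison of WT γδ with WT DN3a cells, which was not among the contrasts that picked the family, had the most calls. The WT DN3a values of Ets2 did take part in the picking, so Ets2 is described here without a test. Of the other 9 genes, limma called 7, with 5 higher and 2 lower in γδ T cells. Of all genes 25.1% were called, 12.7% higher and 12.3% lower. Fli1, Elf1, Elk3, Ets1 and Elf4 rose and Erg and Etv6 fell. The groups did not overlap for 8 of these 9 genes, where 38.9% of all genes did not overlap. The median difference of the 9 genes was 0.35 against -0.004 over all genes. The 7 calls held under every alternative tried.

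Erg had by far the widest gap. Erg was at 6.22, 6.11 and 5.69 on WT γδ arrays, against 9.26, 9.16 and 9.19 on WT DN3a arrays. The difference was -3.20 (SE 0.13, limma adjusted p = 1.7e-13), which is 9.18-fold lower in γδ T cells. In γδ T cells its mean lay above 44.5% of all genes and in DN3a cells above 86.2%, so the γδ value is in a range of weak signal where fold changes on arrays are compressed. Its relative Fli1, which binds much the same sites, went the other way. Fli1 was at 11.19, 11.17 and 11.21 in WT γδ and at 10.52, 10.54 and 10.56 in WT DN3a cells, a rise of 0.65 (SE 0.07, limma adjusted p = 7.5e-07).

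Ets1 and Ets2 also parted. Ets1 was at 10.41, 10.28 and 10.43 in WT γδ and at 9.96, 9.93 and 9.99 in WT DN3a cells, a rise of 0.42 (SE 0.08, limma adjusted p = 2.8e-04). Ets2 was at 8.61, 8.55 and 8.64 in WT γδ and at 9.02, 8.97 and 9.14 in WT DN3a cells. It was lower by 0.44 on the log2 scale (SE 0.09) in WT γδ cells, and the groups did not overlap. On chromosome 9 Fli1 and Ets1 are neighbours with no protein-coding gene between them, as Erg and Ets2 are on chromosome 16. Both genes of the chromosome 9 pair were thus higher in γδ T cells and both genes of the chromosome 16 pair lower, while Gabpa, on chromosome 16 with 126 protein-coding genes between it and Erg, differed by -0.04 (95% interval -0.18 to 0.11). The 2 pairs are a count of 4 genes, and no test of position was made.

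Among the Elf genes, Elf1 was at 11.78, 11.78 and 11.85 in WT γδ and at 11.38, 11.30 and 11.28 in WT DN3a cells, a rise of 0.49 (SE 0.07, limma adjusted p = 2.2e-05). Elf4 was at 10.85, 10.97 and 11.00 in WT γδ and at 10.60, 10.59 and 10.56 in WT DN3a cells, a rise of 0.35 (SE 0.08, limma adjusted p = 0.0031). Elf2 was at 9.38, 9.43 and 9.61 in WT γδ and at 9.65, 9.62 and 9.65 in WT DN3a cells. The γδ arrays were lower and more widely spread, and the difference of -0.17 did not pass (limma adjusted p = 0.0928), though it passed without WT γδ array 3 (-0.24), with quantile normalization (-0.22) and with dim genes left out. Of the repressors, Etv6 was at 10.39, 10.20 and 10.29 in WT γδ and at 10.68, 10.78 and 10.82 in WT DN3a cells and fell by 0.47 (SE 0.10, limma adjusted p = 0.0019). Elk3 was at 8.97, 8.96 and 9.05 in WT γδ and at 8.57, 8.60 and 8.47 in WT DN3a cells and rose by 0.45 (SE 0.09, limma adjusted p = 0.0011).

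Of the 15 other Ets family genes, 3 rose in WT γδ cells, 1 fell and 11 did not pass, with a median difference of 0.0003. Over all genes 25.1% were called. Etv5, known for its role in IL-17-producing γδ T cells, was at 11.23, 11.24 and 11.55 in WT γδ and at 6.27, 6.05 and 6.47 in WT DN3a cells. Its rise of 5.08 (SE 0.20, limma adjusted p = 1.2e-13) was larger than that of any of the 10 genes, and its DN3a values lay near the array median. Spib, a relative of PU.1 present in early T-cell and B-cell precursors, was at 4.85, 4.55 and 4.54 in WT γδ and at 7.97, 8.24 and 8.03 in WT DN3a cells and fell by 3.43 (SE 0.15, limma adjusted p = 4.5e-13). Its γδ values were below the array median. Etv3 rose by 0.85 (SE 0.11), and Etv4 by 0.36, a call lost without WT γδ array 1 (0.33) or 2 (0.28), without WT DN3a array 2 (0.24) or 3 (0.38) and when only the 12 or only the 6 arrays were fitted.

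**Figure D3:**
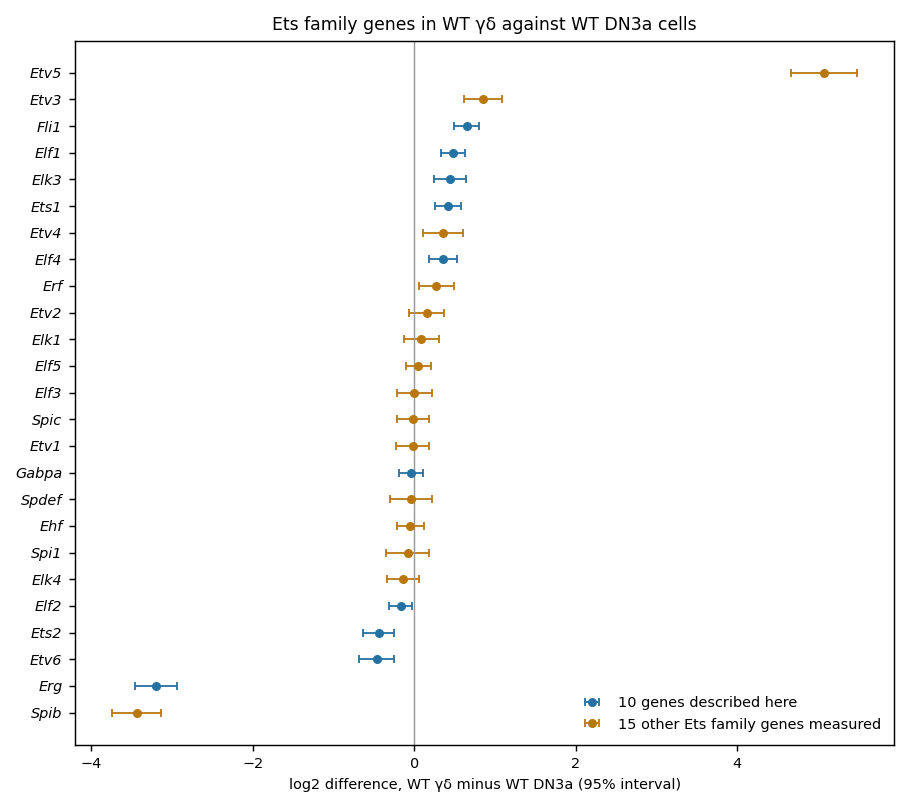
Log2 difference of WT γδ minus WT DN3a cells (x axis) for all 25 Ets family genes measured (y axis, sorted). Points are limma estimates with 95% intervals, blue for the 10 genes described and orange for the 15 others. The interval of Ets2 is no test, since its WT DN3a values took part in picking the family. Etv5 at 5.08 stands at the high end, and Erg at -3.20 and Spib at -3.43 at the low end.

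Among the 23 partners and regulators, 11 were higher in WT γδ than in WT DN3a cells, 4 were lower and 8 did not pass. Of all genes 25.1% were called, 12.7% higher and 12.3% lower. The lists were chosen with earlier results of these data known, so nothing is read from their counts. Dusp6, which switches off ERK and is induced by it, rose by 2.31 (SE 0.17), and Rasgrp1 by 2.13 (SE 0.09). Of the Runx factors that bind beside Ets proteins, Runx3 was higher by 1.76 (SE 0.09) and Runx1 fell by 1.05 (SE 0.08). Of the 25 T-lineage genes 10 rose, 8 fell and 7 did not pass. S1pr1, a receptor for thymic exit, rose by 5.10 and Il2rb, the shared IL-2 and IL-15 receptor chain, by 5.21, whereas Ptcra was at -4.28. S1pr1 and Il2rb were below the array median on all WT DN3a arrays, and Ptcra on 1 of the 3 WT γδ arrays, so these differences have 1 side in a range of weak signal. The limma adjusted p of these 7 genes was at most 1.8e-09. The sorting stress list had 6 of 12 higher and 1 lower. Called markers of cells outside the sorted populations were Lyz2 (-0.89), Epcam (-0.92), Cd79b (-0.45) and Mef2c (-0.50, a call lost when its probe sets were averaged), all lower in WT γδ cells. Cpa3 (1.59), Pecam1 (0.46), Ccr7 (1.96) and S1pr1 were called higher. Of 5 ISP markers 3 were lower and 1 was higher, Cd8b1, with a mean of 8.81 in WT γδ against 7.34 in WT DN3a cells. The part of any of these in the Ets values was not tested.

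The genes whose values were most like those of Ets2 over the 19 arrays, each value taken as its distance from the mean of its population, were Dtx1 (Pearson r = 0.96), Pglyrp2 (0.94), Samd9l (0.94) and Dlg4 (0.94). These correlations describe 19 values that share arrays and genotype, and carry no test. Dtx1 differed between Rptor-/- and WT by 1.81 in ISP, 1.38 in DN3a and 0.57 in γδ T cells, a ranking of the populations shared with Ets2. Pglyrp2, a peptidoglycan recognition protein gene, differed by 1.15, 0.49 and 0.15 in those populations, Samd9l, an interferon-inducible gene, by 1.20, 0.47 and 0.27, and Dlg4, a scaffold protein gene, by 0.54, 0.34 and 0.11. The WT γδ and WT DN3a arrays entered this likeness, with only the mean of each population removed. Between these cells Dtx1 was lower by limma, at -0.90, and Ets2 differed by -0.44. Pglyrp2 and Samd9l were higher, at 1.37 and 0.69, and Dlg4 differed by 0.25. Among the family, r with Ets2 was 0.67 for Ets1, 0.62 for Elf1, 0.61 for Fli1 and 0.40 for Elk3. It was 0.23 for Gabpa, 0.06 for Elf4, -0.15 for Erg, -0.22 for Elf2 and -0.66 for Etv6. In DN3a cells Ets2 differed between Rptor-/- and WT by 1.09, and the other 9 genes by -0.07 to 0.12.

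**Figure D4:**
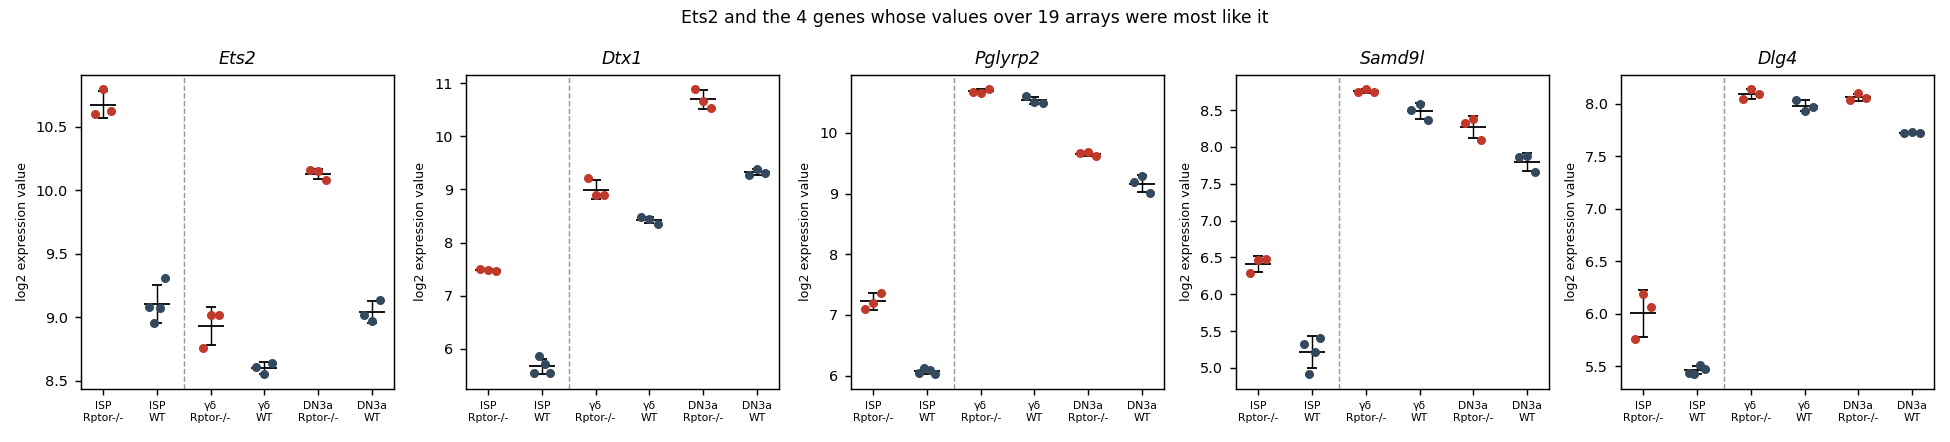
Log2 expression value (y axis, its range differing between panels) of Ets2 and of the 4 genes most like it on each array, by population and genotype (x axis). Points are arrays, red for Rptor-/- and dark blue for WT, bars are the mean ± SD, and the dashed line parts the ISP arrays from the other set. In each panel every Rptor-/- array of ISP and of DN3a cells lies above every WT array of that population, which follows in part from how the genes were picked.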

How the data were processed

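The deposited table held log2 expression values per probe set, made by the authors with RMA in Partek 6.6, per the submitters' processing notes. Per the labels' protocols 12 ng of RNA per array was amplified and biotinylated. Values were used as deposited. Probe sets with 1 symbol were kept (23521 of 41345, with 1814 naming several genes and 16010 unnamed here), symbols were updated through Entrez IDs where RefSeq held them (23328), and the probe set with the highest mean over all arrays stood for a gene. Groups and replicate numbers came from the titles.

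For tests, limma 3.58.1 (R 4.3.3) was fitted as 1 model of 6 group means over 19 arrays, Benjamini-Hochberg adjusted over 22180 genes at 0.05. Every adjusted p is limma's. The fit was tested on simulated data. Named genes were the members, the 4 genes with the highest r with Ets2 (predicted and clone names left out), and up to 4 called genes with the smallest p per list and comparison; Etv5 in DN3a cells, Gabpb2 in ISP cells, Dusp6 between WT populations and the markers named were chosen after their values were seen, as were the motifs GGAA and TGACTCA. Members and lists were chosen with earlier results of these data known. Lists held 16 other Ets genes, 27 partners and regulators and 29 T-lineage genes, and 15, 23 and 25 were measured. Same-numbered samples did not deviate together in every pair, so no replicate block was used. Alternatives were the arrays fitted, 2 scalings, probe-set averaging, a filter on dim genes, the variance model, the block and leaving out each array. Figures were drawn with matplotlib 3.10.9.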

Additional observations from a re-analysis of the deposited data

Results flagged for a closer look

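On WT ISP array 2 Erg was at 3.55, apart from the shared value of 3.20 on the other 3 WT ISP arrays. On WT ISP array 1 Elf2 was at 7.85, apart from 7.79 on the other 3. Both stand out because the other 3 values are identical.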

How the results depend on the processing

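The number of called genes in ISP cells was 2759, and 1313 when only ISP arrays were fitted. In DN3a cells it was 218, and 144 when only DN3a arrays were fitted, and it ranged from 124 to 254 with single arrays left out, being 127 without Rptor-/- array 2 and 144, 124 and 144 without WT arrays 1, 2 and 3. In γδ T cells it was 677, and 345 when only γδ arrays were fitted, with a range of 333 to 782, being 363 without Rptor-/- array 2 and 333 and 434 without WT arrays 2 and 3. The difference of the γδ and DN3a genotype effects had 133 calls, with a range of 76 to 161, and those same 7 arrays gave 76 to 88. Fewer samples entered each of these fits. The Ets2 difference in ISP cells was 1.32 with quantile normalization, in place of 1.57. A value counted as kept if its direction and side of the threshold stayed. For Ets2 in ISP, in DN3a and in the difference of effects, it had to keep its direction and stay within 1 SD instead. Of 748 values of the 10 genes under alternatives, 697 were kept, and 39 changed sign, none of them called and none larger than 0.105. With quantile normalization these were Elf2 at 0.0269 and Elf4 at 0.0067 in ISP cells, Erg at -0.0051 and Gabpa at -0.0246 in DN3a cells, Elf2 at -0.0158 and Gabpa at -0.0122 in γδ T cells, and Ets1 at 0.0167 for the difference of effects. With each array centred they were Gabpa in DN3a cells at -0.002, and Ets1 at 0.0208 in γδ T cells and at 0.0461 for the difference of effects. With single arrays left out, Elf4 in ISP cells ranged from -0.131 to 0.0203. In DN3a cells Ets1 ranged from -0.0487 to 0.0041, Fli1 from -0.0394 to 0.0303, Erg from -0.0232 to 0.102, Etv6 from -0.0633 to 0.0249, Gabpa from -0.0386 to 0.0616 and Elk3 from -0.0773 to 0.0021. In γδ T cells Ets1 ranged from -0.0666 to 0.0147, Erg from -0.0763 to 0.189 and Elf2 from -0.02 to 0.0967, and between WT populations Gabpa from -0.0788 to 0.0043. For the difference of effects Ets1 ranged from -0.0467 to 0.0346, Erg from -0.105 to 0.161, Elf4 from -0.0245 to 0.0519 and Gabpa from -0.023 to 0.0771. The cause of these shifts was not tested. Whether replicate numbers pair the samples is not given by the labels and was not settled by the values. The deviations of same-numbered arrays correlated at 0.099, 0.025 and -0.013 in ISP, 0.242, 0.013 and 0.169 in DN3a, -0.104, -0.003 and -0.017 in γδ T cells and 0.075, 0.026 and 0.099 between WT γδ and WT DN3a cells. Those of different-numbered arrays ranged from -0.132 to 0.081 in ISP, -0.25 to 0.111 in DN3a and -0.102 to 0.116 in γδ T cells. Between WT γδ and WT DN3a cells they ranged from -0.087 to 0.022. With the replicate number as a block the counts were 2629 in ISP, 212 in DN3a, 691 in γδ T cells, 5556 between WT populations and 110 for the difference of effects, and no call of the 10 genes changed. Of the other genes named, the block ended the calls of Etv3 in ISP (0.39), Sox13 (0.51) and Samd9l (0.47) in DN3a cells, and Erf (0.42), Cd8a (-0.53), Cd24a (-0.33) and Cpa3 (-0.40) in γδ T cells, and Etv5 in DN3a cells passed (0.70).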

Other observations

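On the 7 ISP arrays 511 genes had exactly the same value on 6 or more arrays, as Elf2 did, and within groups 9.75% to 12.8% of genes were identical between 2 ISP replicates, against at most 0.036% between replicates of DN3a or γδ T cells.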
